A study of Homo sapiens with 8 samples.

Results

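The genes described here encode the 32 members of the human Mediator complex, including its kinase module. They were chosen by name and not by their measured values, though with earlier results of these data known. All 32 were found among the 63677 genes counted. The cells were JJN3 and H929, lines established from multiple myeloma (MM), a cancer of plasma cells. Cells of each line received THZ1 at 50 nM for 24 h or the vehicle DMSO for the same time, and each of the 4 groups gave 2 RNA-seq libraries. THZ1 binds CDK7 covalently; CDK7 is the kinase of TFIIH, and the drug also inhibits its relatives CDK12 and CDK13. Each line is a single model, and the labels do not say whether the libraries of a group came from separate cultures, so the p-values below measure only the spread between these libraries.

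Mediator carries signals from DNA-bound transcription factors to RNA polymerase II. Its head and middle modules contact the polymerase and the general factors, its tail holds many of the surfaces that bind transcription factors, and MED14 is the scaffold that runs through all of them. A separate kinase module, made of CDK8 or its paralogue CDK19 with cyclin C, MED12 and MED13 or its paralogue MED13L, docks on the complex reversibly and keeps the polymerase from binding while it is there. Mediator is abundant at superenhancers, and it promotes phosphorylation of the polymerase by the CDK7 that THZ1 inhibits. The placing of some subunits, MED16, MED25 and MED26 among them, varies between sources.

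The libraries held 17476443 to 19194371 counts on genes, and 3 counts, the limit that a count of 0 allows, corresponded to 0.156 to 0.172 CPM (the count of a gene scaled by library size), covering counting error only. Mediator genes took 0.147% to 0.155% of the counts in JJN3 and 0.171% to 0.177% in the libraries labelled H929. All 8 plasma cell markers examined had counts in every library, and their summed level in JJN3 was 2073 and 2076 CPM with DMSO and 1481 and 1449 CPM with THZ1. The 5 B cell markers summed to 27.1 to 27.9 CPM with DMSO and 60.8 to 70.3 CPM with THZ1 in JJN3, and mitochondrial genes took 3.36% and 1.65% of the counts with DMSO and 5.34% and 6.63% with THZ1. The part of these shifts in the differences below was not tested. The libraries under the 2 H929 labels went against a single origin. Of their counts on light chain V genes, 99.99% and 97.96% lay on lambda genes under DMSO and 0.203% and 0.194% under THZ1. FGFR3, a target of the translocation known in H929, had 45 and 285 counts under DMSO and 14117 and 13411 under THZ1. The 2 DMSO libraries differed from each other too, with 3 and 597 counts on kappa V genes, yet were used as equal replicates. Differences between the H929 labels are therefore given for the libraries as labelled, since a response to THZ1 and a difference between cells cannot be told apart there. The JJN3 comparison used the 4 JJN3 libraries alone.

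Every Mediator gene was detected in every library. The lowest count of any member was 69 and the highest was 3457, and all 32 passed edgeR's filter on low counts in each comparison. Levels are given as CPM scaled by TMM, a normalization that assumes most genes keep their relative level. CPM are shares of a library, so fewer cells and less RNA per cell cannot be told apart, and a fall in total RNA would not be seen. Per kilobase of exon, levels in JJN3 with DMSO ran from 1.97 CPM per kb for CDK19 to 36.96 CPM per kb for MED10, with a median of 8.31. CCNC at 20.7, MED29 at 21.95 and MED4 at 23.9 CPM per kb lay near the top in the same libraries. MED13L stood at 2.95 CPM per kb of all annotated exons, but its length is annotated as 32862 bases of exon against 9885 in its longest coding transcript, so its level depends on which length is used.

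In JJN3, members differed in both directions between THZ1 and DMSO. Of the 32, 6 were called lower (18.8%, against 21.3% of all 13984 genes tested) and 5 were called higher (15.6%, against 20.6% of all genes). A gene was called where edgeR's quasi-likelihood test gave an adjusted p under 0.05 and the log2 fold change was beyond 0.5. Both shares lay near or under those of all genes in this edgeR fit, so the counts do not set Mediator apart. An adjusted p under 0.05 at any fold change was found for 20 members (62.5%), against 59.0% of all genes. Over the members the log2 fold change had a median of -0.16 and ran from -1.61 to 1.08, and the median of all genes tested was -0.0004. When libraries were scaled by total counts alone, 10 members were called lower and 4 higher; that scaling moved the median of all genes by -0.10 and that of the members to -0.26.

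**Figure D1:**
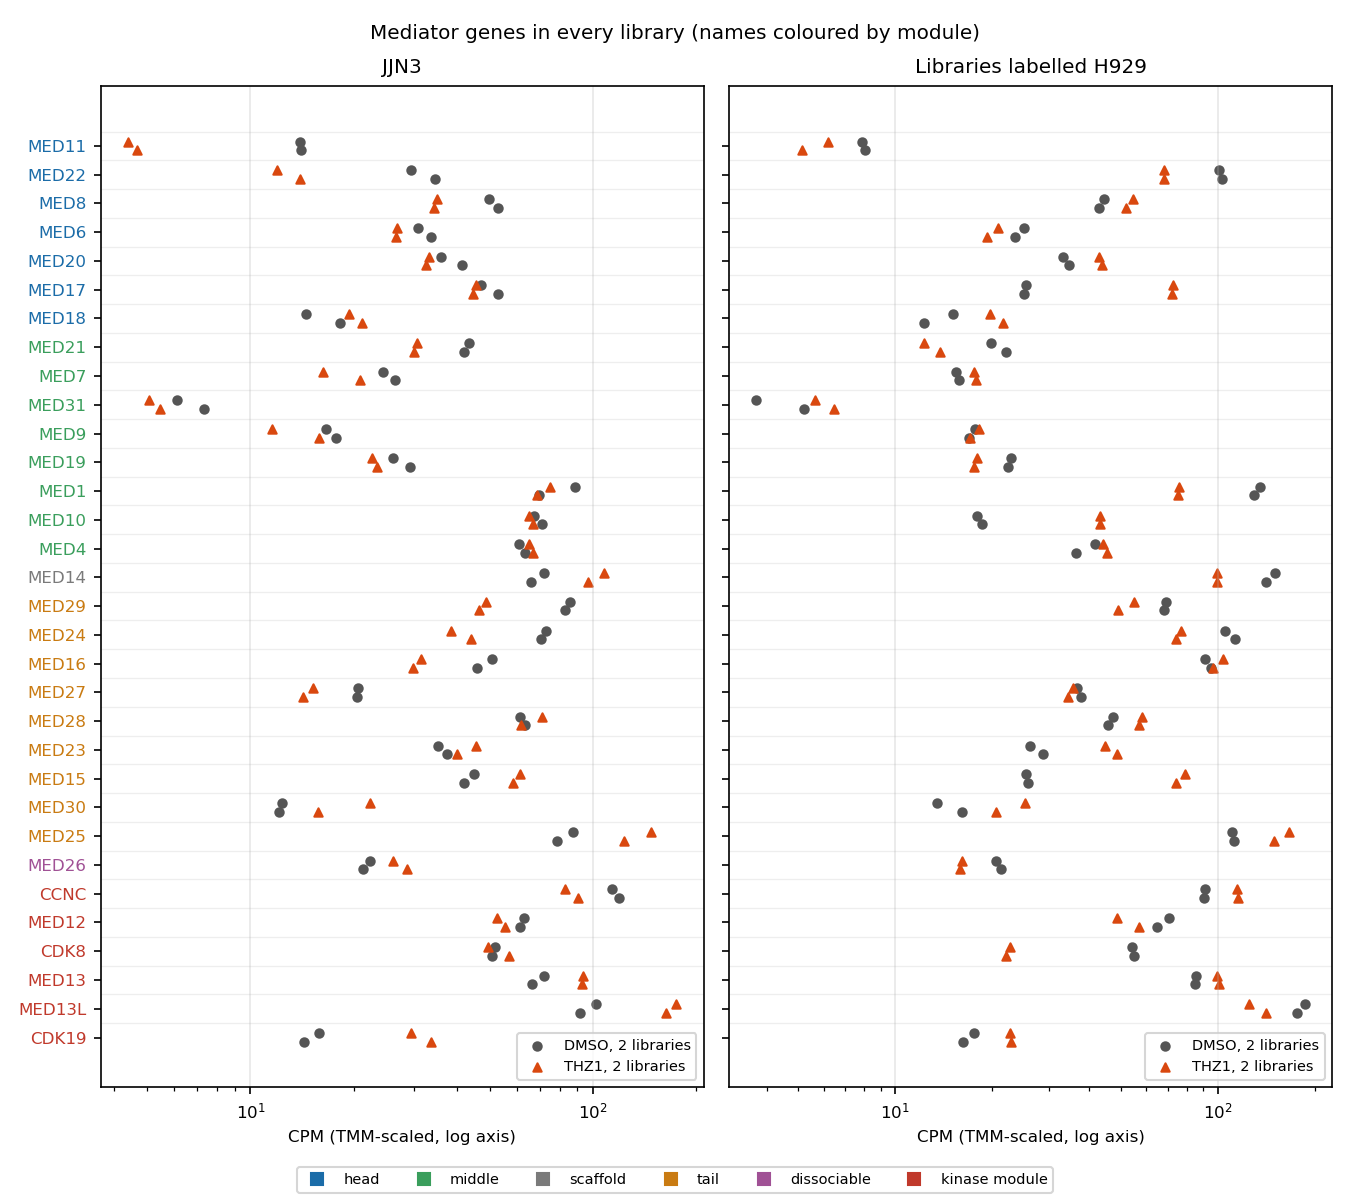
Level of each of the 32 Mediator genes in every library, as TMM-scaled CPM on a log axis, with JJN3 on the left and the libraries labelled H929 on the right. Circles are the 2 DMSO libraries and triangles the 2 THZ1 libraries of each panel, and gene names are coloured by module. In JJN3, MED11 lay at 14.0 and 14.1 CPM with DMSO and at 4.40 and 4.67 CPM with THZ1, while CDK19 lay at 15.9 and 14.3 against 29.4 and 33.6 CPM.

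The members called lower belong to the head and the tail. In the head module, 3 of 7 members were called lower and none higher in JJN3, against 21.3% lower and 20.6% higher over all genes. Log2 fold changes below 0 were found for 6 of the 7, against 6998 of all 13984 genes tested. The median of the head was -0.26. Both counts are too small to set the module apart. MED11, a small subunit of the head that helps to assemble the transcription machinery, showed the largest fall of any member. The gene lies at chr17:4634723-4636903 on the plus strand of hg19. MED11 had 270 and 275 counts under DMSO, and 72 and 84 under THZ1 in JJN3. Both THZ1 libraries lay far under both DMSO libraries, and the groups did not overlap. The fall was 3.05-fold, a log2 fold change of -1.61 ± 0.155 (SE, 2 libraries per group), with an adjusted p of 8.84e-06 from edgeR. Exons of other genes, CXCL16 on the opposite strand among them, share 36.3% of the exon bases of MED11, and whether counting used strand is not given in the sources used here. CXCL16 had 57 and 54 counts in the DMSO libraries against 84 and 70 in the THZ1 libraries, so it moved the other way (log2 fold change 0.67 ± 0.235, adjusted p = 0.0297 by edgeR).

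MED22, which pairs with MED11 in the head, fell with it. The gene lies at chr9:136205149-136214986 on the minus strand. Its counts in JJN3 were 569 and 675 with DMSO and 196 and 251 with THZ1, with no overlap between the groups. The fall was 2.44-fold (log2 fold change -1.29 ± 0.129, adjusted p = 1.21e-05 by edgeR). A second identifier with the same symbol had a count of 0 in every library. MED8, the head subunit that links MED18 and MED20 to the rest of the module, fell less. It lies at chr1:43849588-43855479 on the minus strand, and it had 963 and 1032 counts with DMSO against 575 and 620 with THZ1. Its log2 fold change of -0.55 ± 0.0882 lay just past the limit of the call (adjusted p = 0.000313 by edgeR). MED6 at -0.26, MED20 at -0.22 and MED17, the large subunit at the core of the head, at -0.13 were not called on the same scale, and MED18 stood at 0.33. The falls called in the head ran from 1.46-fold for MED8 to 3.05-fold for MED11.

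The tail split in both directions, with 3 of 9 members called lower, 2 called higher and a median log2 fold change of 0.10 in JJN3, against the same shares of all genes. MED29, at chr19:39881943-39891281 on the plus strand, had 1660 and 1615 counts under DMSO, and 798 and 836 under THZ1. Its level fell 1.75-fold, and the groups stood well apart (log2 fold change -0.81 ± 0.0814, adjusted p = 1.21e-05 by edgeR). MED24, which forms part of the surface used by nuclear receptors and lies at chr17:38175350-38217468 on the minus strand, had 1413 and 1376 counts with DMSO. With THZ1 it had 630 and 793 counts, lower in both libraries, for a log2 fold change of -0.78 ± 0.0918 (adjusted p = 3.38e-05 by edgeR). MED16, a tail subunit that binds MED24 and lies at chr19:867630-893218 on the minus strand, had 977 and 893 counts with DMSO against 514 and 535 with THZ1. Its groups did not overlap either, and the log2 fold change was -0.64 ± 0.0945 (adjusted p = 0.000168 by edgeR). MED24 and MED16, which join one another in the complex, were 1.72-fold and 1.56-fold lower.

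Against these stood MED25 and MED30. MED25, the subunit bound by the ETS family activators and by viral activators, lies at chr19:50321539-50343640 on the plus strand. It had 1695 and 1531 counts in the DMSO libraries against 2412 and 2213 in the THZ1 libraries, so both treated libraries were the higher ones. The rise was 1.64-fold (log2 fold change 0.72 ± 0.0994, adjusted p = 0.000107 by edgeR). Of its exon bases, 18.7% are shared with an antisense gene, PTOV1-AS1, whose own log2 fold change was -0.06 ± 0.155. MED30, a metazoan subunit at chr8:118532952-118552501 on the plus strand, had 239 and 237 counts under DMSO, and 365 and 283 under THZ1. The groups did not overlap, but the THZ1 libraries lay apart from each other at 22.3 and 15.7 CPM. Its log2 fold change was 0.65 ± 0.162 (adjusted p = 0.00527 by edgeR), and without THZ1 replicate 1 it was 0.37 and no longer called. MED15, the subunit that binds SMAD2, SMAD3 and SREBP activators, had a log2 fold change of 0.48 ± 0.0849 and lay just under the limit, past which it moved without DMSO replicate 1 (0.50) or THZ1 replicate 2 (0.51). MED27, a tail subunit at -0.46 ± 0.116, was called without THZ1 replicate 1, at -0.51, with total counts, at -0.56, and with no filter, at -0.50.

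MED14, the scaffold, was higher after THZ1 in JJN3. The gene lies at chrX:40507557-40595110 on the minus strand. It had 1386 and 1287 counts in the DMSO libraries against 1767 and 1744 in the THZ1 libraries, and both THZ1 libraries were above both DMSO libraries. The rise was 1.5-fold (log2 fold change 0.59 ± 0.0869, adjusted p = 0.000166 by edgeR), and with total-count scaling it was 0.49 and outside the call. The middle module connects the head to the tail and carries the hinge of MED7 and MED21. It had no member called in either direction, against 21.3% lower and 20.6% higher over all genes. Of its 8 log2 fold changes 7 were below 0, against 6998 of all 13984 genes tested. The 8 ran from -0.48 for MED21 to 0.10 for MED4, with a median of -0.28. Counts from 8 genes do not set the module apart. Calls appeared here when 1 library was left out: MED7 stood at -0.62 and MED9 at -0.56 without THZ1 replicate 2, MED7 at -0.50 without DMSO replicate 1, and MED21 at -0.51 without DMSO replicate 2. With total-count scaling MED21 and MED7 were called too, at -0.58 and -0.53, and with no filter MED21 was, at -0.52. MED1, the middle subunit bound by nuclear receptors and concentrated at superenhancers, had 88.4 and 69.6 CPM with DMSO and 75.0 and 68.6 CPM with THZ1. Its groups overlapped (log2 fold change -0.12 ± 0.109, adjusted p = 0.354 by edgeR). MED26, through which Mediator meets elongation factors, stood at 0.34 ± 0.106 and was not called, and 50.1% of its exon bases are shared with other genes.

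**Figure D2:**
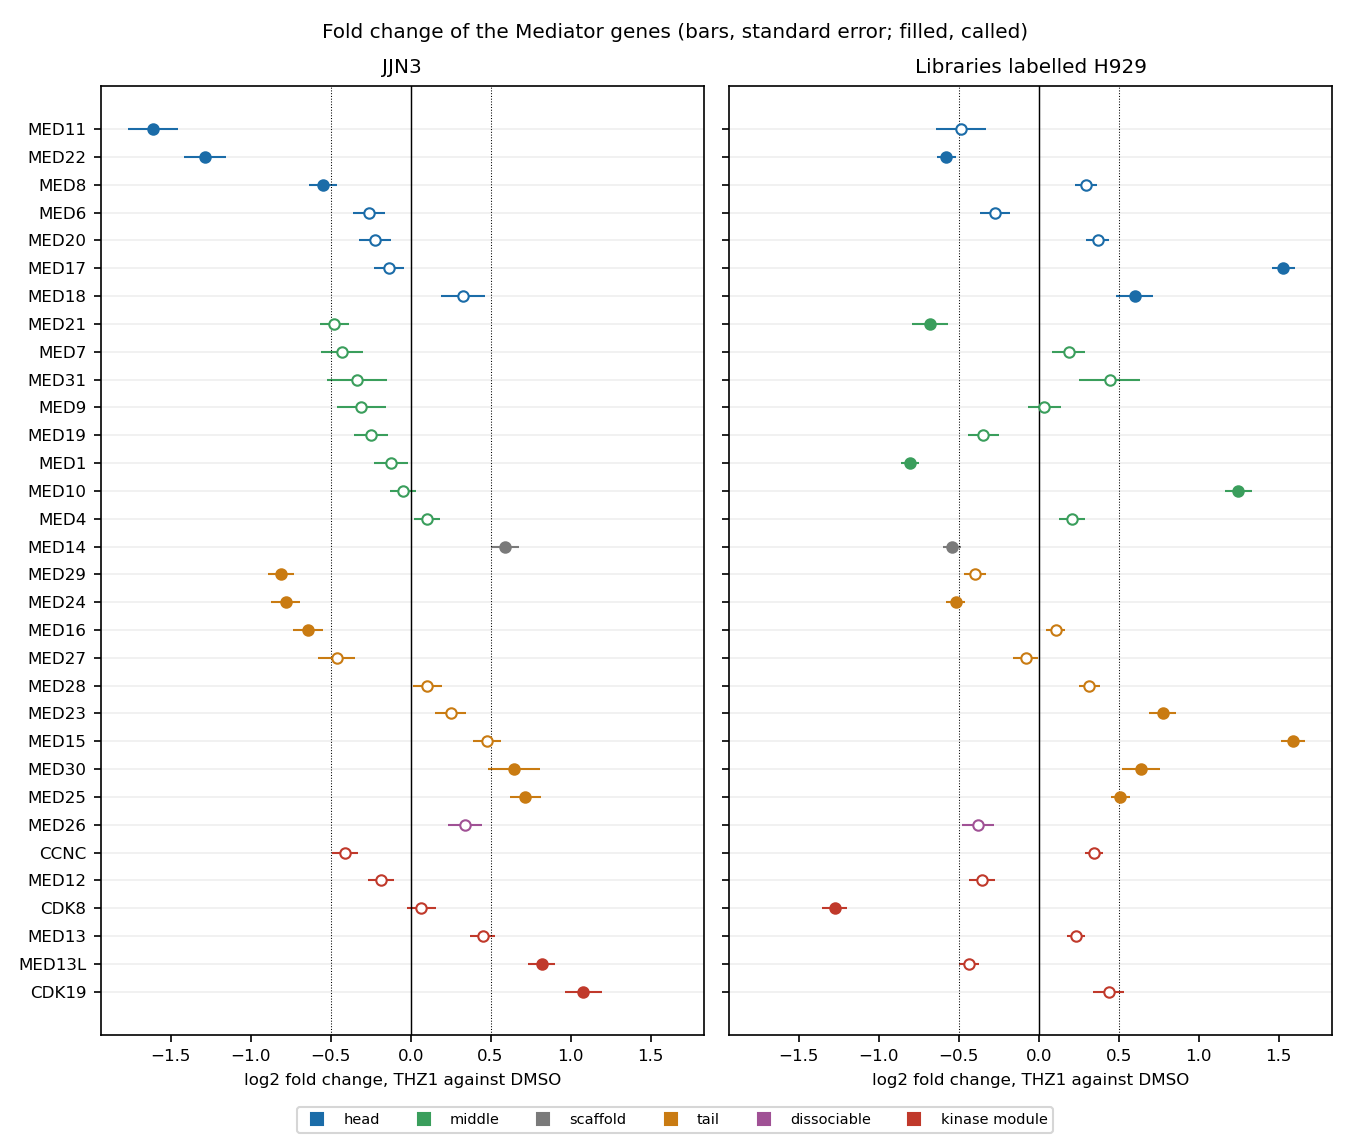
Log2 fold change of THZ1 against DMSO for each Mediator gene in JJN3 (left) and between the libraries labelled H929 (right), with bars for the standard error and colours for the module. Filled points were called (adjusted p under 0.05 and a log2 fold change beyond 0.5, dotted lines), and in JJN3 the values run from -1.61 for MED11 to 1.08 for CDK19.

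In the kinase module, 2 of 6 members were called higher in JJN3 and none lower, against 20.6% higher and 21.3% lower over all genes. With 6 genes these counts do not set the module apart. Its median log2 fold change was 0.26, and that of the other 26 members was -0.23. CDK19, one of the alternative kinases of the module, showed the largest rise of any Mediator gene. It lies at chr6:110931181-111137161 on the minus strand. Its counts were 307 and 279 with DMSO and 482 and 605 with THZ1, and the groups did not overlap. The level rose 2.11-fold (log2 fold change 1.08 ± 0.118, adjusted p = 2.02e-05 by edgeR).

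No change was detected for CDK8, the other kinase. It lies at chr13:26828241-26995119 on the plus strand, and had 1001 and 992 counts under DMSO, and 810 and 1021 under THZ1. On the CPM scale the DMSO libraries lay at 51.8 and 50.8 and the THZ1 libraries at 49.5 and 56.7, on either side of them. The log2 fold change was 0.07 ± 0.0923 (adjusted p = 0.556 by edgeR). Per kilobase of exon, CDK19 made up 15.98% and 14.85% of the CDK19 and CDK8 pair with DMSO and 26.96% and 26.87% with THZ1. This share was 15.4% ± 0.798 (SD, n = 2) with DMSO and 26.9% ± 0.0587 with THZ1, a difference larger than the spread between the libraries, and CDK8 remained the more abundant transcript of the pair in all 4 libraries. With the longest coding transcript as the length, the shares were 12.3% and 22.1%.

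MED13L and MED13 tie the kinase module to the rest of Mediator, and MED13L was called higher while MED13 was not. MED13L lies at chr12:116395710-116715498 on the minus strand, and had 1976 and 1789 counts in the DMSO libraries against 2865 and 2942 in the THZ1 libraries. Both THZ1 libraries were higher, by 1.77-fold (log2 fold change 0.82 ± 0.0851, adjusted p = 1.44e-05 by edgeR). MED13, at chr17:60019966-60142639 on the minus strand, had 71.8 and 66.1 CPM with DMSO and 93.6 and 92.7 CPM with THZ1, from 1388 and 1292 counts and 1532 and 1669 counts. Its libraries did not overlap either, yet its log2 fold change of 0.45 ± 0.0805 stayed under the limit (adjusted p = 0.000632 by edgeR). The share of MED13L in the pair, per kilobase of exon, was 35.1% ± 0.447 (SD, n = 2) with DMSO and 41.2% ± 1.01 with THZ1. With the coding transcript as the length it was 59.8% and 65.8%, so which of the 2 was the more abundant depended on the length used, while the direction of the shift did not.

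CCNC encodes cyclin C, which activates CDK8 and CDK19, and MED12 couples the cyclin and kinase to the module and stimulates their activity. CCNC lies at chr6:99990263-100016701 on the minus strand, and had 2190 and 2327 counts under DMSO, and 1355 and 1626 under THZ1. The THZ1 libraries were the lower ones, at 82.8 and 90.3 CPM against 113 and 119 CPM, with a log2 fold change of -0.41 ± 0.0824 (adjusted p = 0.00138 by edgeR) that stayed within the limit. It was past the limit, at -0.51, with total-count scaling. MED12, at chrX:70338393-70363953 on the plus strand, had 1216 and 1196 counts in the DMSO libraries against 860 and 995 in the THZ1 libraries. Its levels were 62.9 and 61.2 CPM against 52.5 and 55.3 CPM, and the log2 fold change of -0.19 ± 0.0822 did not pass the test (adjusted p = 0.0702 by edgeR). MED12L, a paralogue of MED12 that is not among the 32 members, had 56 and 37 counts under DMSO, and 53 and 49 under THZ1.

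**Figure D3:**
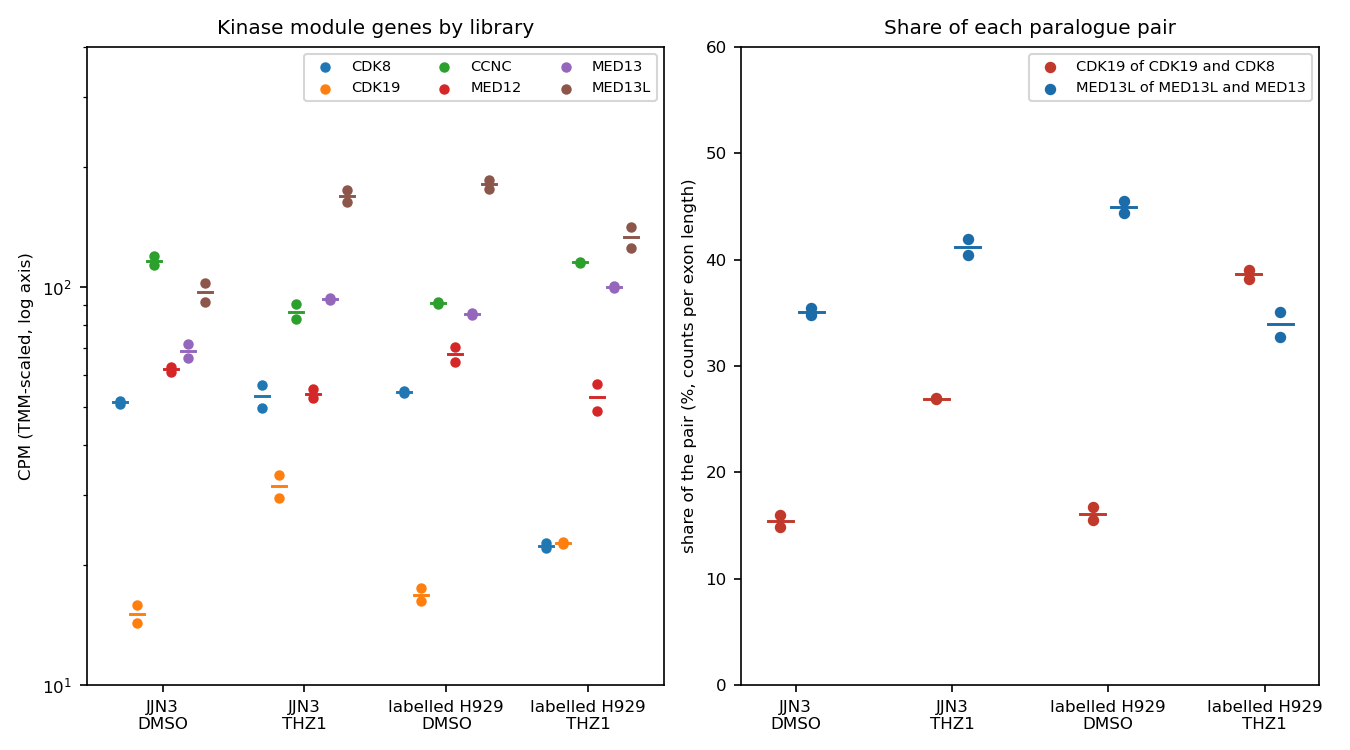
Left, TMM-scaled CPM (log axis) of the 6 kinase module genes in each library, with points for libraries and a line for the mean of each group. Right, the share of CDK19 in the CDK19 and CDK8 pair and of MED13L in the MED13L and MED13 pair, in percent of counts per exon length, where the share of CDK19 went from 15.4% to 26.9% in JJN3 and from 16.1% to 38.6% between the H929 labels.

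Promoters of some members called in JJN3 are shown to let their sequence be read beside their values. RefSeq promoter windows, 250 bases before to 50 after the start in GRCh38.p14, held 24 of the 32 members, and not MED22. Among called members with a window, MED11 and MED29 had the largest falls and CDK19 and MED13L the largest rises. The 150 bases before the start, 5′ to 3′ along the gene, are printed for MED11 and MED29, which fell, for CDK19 and MED13L, which rose, and for MED17, which was not called. Capitals mark CCGGAAG (an ETS family motif), CCAAT (the CCAAT box) and GGGCGG (the GC box) on either strand, and adjoining matches run together. The windows are chr17:4731278-4731427 (MED11, plus strand), chr19:39391228-39391377 (MED29, plus), chr6:110815856-110816005 (CDK19, minus, 1 of 3 starts in the table), chr12:116277694-116277843 (MED13L, minus) and chr11:93784132-93784281 (MED17, plus).
MED11: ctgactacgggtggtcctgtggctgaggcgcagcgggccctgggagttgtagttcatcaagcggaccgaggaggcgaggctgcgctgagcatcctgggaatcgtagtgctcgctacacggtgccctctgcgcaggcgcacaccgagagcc
MED29: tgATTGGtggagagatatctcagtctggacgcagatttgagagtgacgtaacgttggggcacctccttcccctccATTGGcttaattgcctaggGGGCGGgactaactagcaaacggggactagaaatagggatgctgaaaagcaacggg
CDK19: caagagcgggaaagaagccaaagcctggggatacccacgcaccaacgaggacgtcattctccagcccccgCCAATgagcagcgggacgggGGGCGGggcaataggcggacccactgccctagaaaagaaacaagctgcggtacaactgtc
MED13L: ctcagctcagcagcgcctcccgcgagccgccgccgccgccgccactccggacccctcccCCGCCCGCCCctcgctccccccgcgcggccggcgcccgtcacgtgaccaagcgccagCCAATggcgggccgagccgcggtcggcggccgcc
MED17: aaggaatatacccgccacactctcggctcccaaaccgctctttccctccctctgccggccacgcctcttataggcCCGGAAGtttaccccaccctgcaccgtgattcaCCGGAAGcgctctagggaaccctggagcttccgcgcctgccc

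Over the whole windows, CCGGAAG or its reverse complement occurred in 7 of the 24 members (29.2%) and in 10.3% of all 35116 promoters in the table. A member with several starts was counted if any window held the motif, while all promoters were counted window by window. The 2 kinds of share, here and for the other motifs below, are therefore not of the same unit. The 7 were MED7, MED11, MED15, MED17, MED18, MED29 and MED31. In MED11 the match began 2 bases and in MED29 22 bases after the start, outside the stretch printed above. Of the members with a window that were called lower in JJN3, 2 of 4 held the ETS motif, and of those called higher 0 of 3 did. For CCAAT these were 3 of 4 and 2 of 3, for GGGCGG 2 of 4 and 3 of 3, and for TATAAA 1 of 4 and 0 of 3. With so few genes no motif can be linked to a direction. MED17 held the ETS motif at 2 places and its log2 fold change was -0.13, and MED15, with the motif at 2 places as well, stood at 0.48. MED7, with matches beginning at -104, -14 and 5 bases from the start, stood at -0.43. GGGCGG occurred in 16 of 24 members (66.7%) against 45.0% of all promoters, CCAAT in 9 (37.5%) against 34.6%, and TATAAA, the TATA box, in 2 (8.33%) against 11.5%. A match is a description of the letters and not evidence of binding.

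Most members called lower in JJN3 came from short genes, 5 of 6 under 30 kb, and 3 of the 5 called higher came from longer ones. The span from the first to the last annotated base was 2.18 kb for MED11, 5.89 kb for MED8, 9.34 kb for MED29 and 9.84 kb for MED22, against 206 kb for CDK19 and 319.8 kb for MED13L. Across the 32 members in JJN3, Spearman's rho between span and log2 fold change was 0.48, and Pearson's r with the log10 of the span was 0.59. These are descriptions across genes of the same libraries, and genes are not independent replicates. Of the 18 members under 30 kb, a split chosen after the values were seen, 5 were called lower and 2 higher, with a median log2 fold change of -0.28. Of the 14 longer members, 1 was called lower and 3 higher, with a median of 0.18. The same direction was found over all 11589 protein-coding genes tested, where rho was 0.24, the median was -0.21 under 30 kb and 0.09 above it, 31.0% of the shorter genes were called lower and 22.6% of the longer ones higher. Members went against it as well. MED27, at 226.9 kb, had a log2 fold change of -0.46 ± 0.116, while MED25 at 22.1 kb and MED30 at 19.6 kb rose. Between the H929 labels rho was -0.17 over the members and 0.08 over 12425 protein-coding genes.

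**Figure D4:**
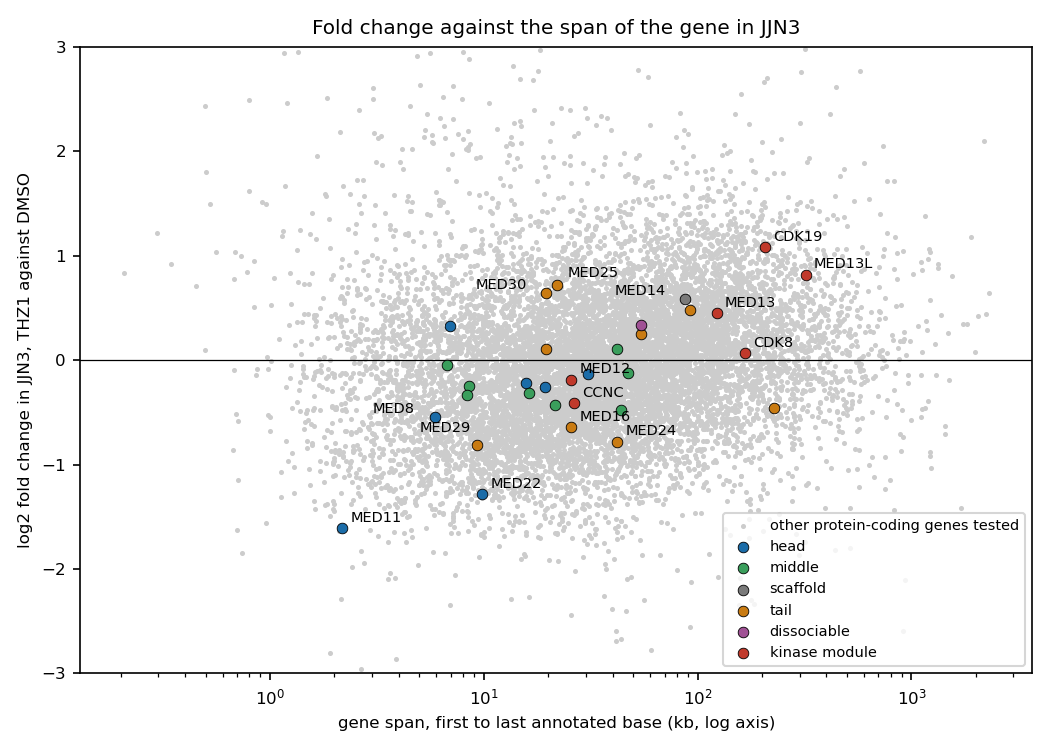
Log2 fold change of THZ1 against DMSO in JJN3 against the span of the gene in kb (log axis), with Mediator genes coloured by module over the 11589 protein-coding genes tested (grey, 59 of them beyond the axis). The members run from MED11 at 2.18 kb and -1.61 at the lower left to CDK19 and MED13L at 206 and 319.8 kb at the upper right.

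Between the libraries labelled H929, 6 members were called lower with THZ1 (18.8%, against 32.6% of 14863 genes tested) and 7 higher (21.9%, against 33.1%). An adjusted p under 0.05 was found for 28 members (87.5%), against 81.9% of all genes. Among the members the log2 fold change had a median of 0.15, against 0.01 for all genes. The spread between libraries was smaller here, with a biological coefficient of variation of 0.043 against 0.074 in JJN3. The largest differences lay in members that were not called in JJN3. MED15 had 473 and 466 counts under DMSO and 1511 and 1405 under THZ1, a 3.01-fold higher level (log2 fold change 1.59 ± 0.0728, adjusted p = 8.77e-12 by edgeR). MED17 had 472 and 452 counts against 1385 and 1368 (log2 fold change 1.53 ± 0.0711), and MED10 had 333 and 335 against 822 and 815 (1.25 ± 0.0826). In each of the 3 the groups stood far apart.

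CDK8 was the member with the largest fall between the H929 labels, with 1008 and 990 counts under DMSO and 432 and 419 under THZ1. Both libraries labelled THZ1 were lower, by 2.42-fold (log2 fold change -1.28 ± 0.076, adjusted p = 2.21e-10 by edgeR). CDK19 had 326 and 293 counts against 431 and 433, with a log2 fold change of 0.44 ± 0.0968 that was not called. The share of CDK19 in the pair was 16.1% ± 0.847 (SD, n = 2) under DMSO and 38.6% ± 0.590 under THZ1. The share was thus higher under THZ1 in both comparisons. In JJN3 CDK19 rose with no change detected for CDK8, while between the H929 labels CDK8 was lower and CDK19, though not called, was higher. There a response to THZ1 and a difference between cells cannot be told apart. MED13L had the opposite sign from JJN3, with 3457 and 3172 counts under DMSO and 2388 and 2671 under THZ1 (log2 fold change -0.44 ± 0.0616, called without THZ1 replicate 2, at -0.51), and its share in the pair was 44.95% under DMSO and 33.9% under THZ1. MED12L had 8 and 18 counts under DMSO and 138 and 132 under THZ1.

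In both comparisons 4 members (12.5%) were called in the same direction, against 18.4% of the 12787 genes tested in both. MED22 and MED24 were lower in both, with log2 fold changes between the H929 labels of -0.58 ± 0.0576 and -0.52 ± 0.0599. MED25 and MED30 were higher in both, at 0.51 ± 0.0595 and 0.64 ± 0.121 between the H929 labels. MED24 under the H929 labels lay at the limit, and it was not called with DESeq2, at -0.50, with DESeq2's size factors in edgeR, at -0.49, with total counts, at -0.47, without DMSO replicate 2, at -0.45, or without THZ1 replicate 2, at -0.49. MED25 was not called there without DMSO replicate 1 (0.49) or THZ1 replicate 1 (0.44), nor was MED30 without THZ1 replicate 1 (0.49). MED18, at 0.60 ± 0.116, was lost without DMSO replicate 2, at 0.48. MED14 was called in opposite directions, with a log2 fold change of -0.54 ± 0.0562 between the H929 labels, and with total-count scaling it was called in neither comparison, at 0.49 in JJN3 and -0.49 between the labels. Calls in opposite directions were found for 8.78% of all genes tested in both. In neither comparison were 13 members called (40.6%), against 23.2% of all genes. MED11, the member that fell most in JJN3, stood at -0.49 ± 0.157 between the H929 labels, just within the limit. It was past the limit without DMSO replicate 1 (-0.51) or THZ1 replicate 1 (-0.62). CXCL16, whose exons overlap those of MED11, had 160 and 161 counts under the H929 DMSO label and 31 and 31 under THZ1. It was thus lower there as MED11 was, unlike in JJN3, and its part in the MED11 counts was not tested. A test of the difference between the JJN3 response and the H929-labelled difference, fitted over all 8 libraries, passed for 21 members (65.6%), against 62.0% of 16122 genes tested. For 15 of the 21 the JJN3 value was the smaller and for 6 the larger, against 5209 and 4783 of the 9992 genes that passed.

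Genes of the machinery around Mediator were counted in the same fits. Of the 14 tested genes of the super elongation and little elongation complexes, which MED26 and the kinase module recruit or bind, 8 were called higher and 1 lower in JJN3, with a median log2 fold change of 0.56, against 20.6% higher and 21.3% lower over all genes. Their scaffold AFF1 had 1718 and 1497 counts in the DMSO libraries against 3874 and 3905 in the THZ1 libraries, a log2 fold change of 1.47 ± 0.0933. EAF1, a partner of the ELL factors, stood at 1.32 ± 0.0938 and AFF4, the other scaffold, at 1.21 ± 0.0829. Of the 24 genes of TFIIA, TFIIB, TFIID, TFIIE and TFIIF, 4 were lower and 3 higher, with a median of 0.03. TAF12 and TAF10, subunits of TFIID, were at -1.29 ± 0.0883 and -0.71 ± 0.135, and GTF2A1, the large subunit of TFIIA, at 1.28 ± 0.0842.

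Of the DNA-bound factors and coactivators that bind Mediator subunits, 19 of 23 were tested in JJN3. Of these, 5 were higher (26.3%) and 1 lower (5.26%), against 20.6% higher and 21.3% lower over all genes. Their median log2 fold change was 0.28, and counts this small do not set the list apart. NIPBL, the cohesin loader that associates with Mediator, had 4174 and 3970 counts under DMSO, and 8699 and 8650 under THZ1 (log2 fold change 1.29 ± 0.0901). SMAD3, which binds MED15, and CTNNB1, the β-catenin that binds MED12, stood at 1.19 ± 0.144 and 1.08 ± 0.0857. Of 9 substrates and regulators of the kinase module 8 were tested, and 3 were higher and 2 lower, against the same shares of all genes. These counts are too small to set the list apart either. E2F1, which CDK8 restrains, had 1507 and 1555 counts under DMSO, and 497 and 634 under THZ1. Its log2 fold change was -1.25 ± 0.0944, with groups that stood well apart, and SMAD3 is in both lists. Between the H929 labels the counts of genes lower and higher were 2 and 7 of 14 for the elongation complexes, 5 and 7 of 24 for the general factors, 8 and 7 of 21 for the Mediator-binding factors and 3 and 3 of 9 for the kinase substrates, against 32.6% and 33.1% of all genes.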

How the data were processed

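RNA-seq libraries of JJN3 and H929 cells were analysed from a table of counts per Ensembl gene. The authors aligned single-end reads to hg19 with STAR 2.5.2a, kept reads mapping to a single place, counted them with featureCounts and deposited the counts without normalization. Tables of their DESeq2 1.12.4 comparisons (fold changes and p-values) were used for gene symbols only. Genes were tested with edgeR 4.0.16 in R 4.3.3 (TMM, filterByExpr, quasi-likelihood test, Benjamini-Hochberg adjustment over all genes tested) within the libraries of each line label. The JJN3 response minus the difference between the H929 labels was tested over 8 libraries. The fits were tested on simulated data. Alternatives were DESeq2 1.42.0, other scalings, filters and fold change limits, a replicate block, and leaving out each library. Positions and lengths came from the GENCODE annotation lifted to GRCh37, another release than that used for counting, and promoters from RefSeq. Full values were given for the kinase module and for members called in JJN3, and for at most 3 genes of each partner list, 1 of which is not reported here. Members, lists and this rule were chosen with earlier results of these data known. Replicates of each group differed by more than sampling noise. Counts with near-identical copies can be split, but the 19 annotated pseudogenes of members had at most 3 counts.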

Additional observations from a re-analysis of the deposited data

Results flagged for a closer look

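The response of JJN3 differed from the difference between the H929 labels for 21 of 32 Mediator genes, by edgeR's test of the interaction over 8 libraries. This is 65.6% of the members, near the 62.0% of all 16122 genes tested, so the count says nothing particular about Mediator. Values are the JJN3 log2 fold change minus that between the H929 labels, and the cells under the 2 H929 labels differ as described above, so the cause cannot be told apart. In the head the differences were -1.67 for MED17, -1.13 for MED11, -0.85 for MED8, -0.72 for MED22 and -0.60 for MED20. In the middle they were -1.31 for MED10, -0.79 for MED31, -0.63 for MED7 and 0.67 for MED1. In the tail they were -1.12 for MED15, -0.75 for MED16, -0.53 for MED23, -0.42 for MED29, -0.39 for MED27 and -0.27 for MED24. The scaffold MED14 stood at 1.12 and MED26 at 0.71. In the kinase module the differences were 1.33 for CDK8, 1.25 for MED13L, 0.64 for CDK19 and -0.76 for CCNC. The differences of MED24, MED27 and MED31 did not pass with DESeq2, with adjusted p of 0.0828, 0.0789 and 0.104. The difference of MED24 also failed in 6 of the 8 fits that left out 1 library, at -0.32 to -0.19, and with the replicate block, and that of MED31 failed without JJN3 DMSO replicate 2 (-0.67), H929 DMSO replicate 1 (-0.57) or H929 THZ1 replicate 2 (-0.71).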

How the results depend on the processing

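With a log2 fold change beyond 1, 2 members were lower and 1 higher in JJN3, and 1 and 3 between the H929 labels. For 7 the JJN3 response differed from the difference between the H929 labels. Shares of all genes at this limit are not given here, so these counts say nothing particular about Mediator. With no limit on the fold change the counts were 11 and 9 in JJN3 and 13 and 15 between the H929 labels. Both directions together made 62.5% and 87.5% of the members, against 59.0% and 81.9% of all genes. Total-count scaling gave 10 lower in JJN3 and a median of -0.26; over all genes it gave 3639 lower and 2353 higher, against 2972 and 2877. Leaving out 1 library gave medians of -0.21 to -0.15 in JJN3 and of 0.11 to 0.18 between the H929 labels. Same-numbered libraries did not deviate together (correlations of 0.0037 and -0.012 across genes). The replicate block gave 6 lower and 5 higher in JJN3, against 3013 and 2889 of 13984 genes. Between the H929 labels it gave 6 and 7, against 4783 and 4855 of 14863 genes, and it gave 20 differences in response. DESeq2 gave 6 lower and 5 higher in JJN3, against 2612 and 2229 of the 16724 genes it tested. With DESeq2 the shares of the members thus lay somewhat over those of all genes, and counts this small do not set them apart. Of the single-gene values under alternatives, 1104 kept their side of the threshold, 23 crossed into it and 25 out of it, and none that was called changed sign. Uncalled values near 0 changed sign 20 times, in 7 members. With 2 libraries a group, small differences are not resolved, and MED11, MED20, MED26, MED28 and MED31 share over 20% of their exon bases with other genes, on the opposite strand for MED11, MED28 and MED31, on the same strand for MED20 and on both for MED26.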
